A study of Homo sapiens with 4 samples.

Results

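The genes of 10 AP-1 factors, FOS, FOSB, FOSL1, FOSL2, JUN, JUNB, JUND, ATF3, BATF and BATF3, were examined for open chromatin in fibroblasts with and without ΔNp63α. A peak was assigned to a gene when its summit lay in the gene body or within 50 kb of one of its transcription start sites (TSS) in GENCODE release 44. By this rule 123 of the 101142 peaks of the control list and 133 of the 109486 peaks of the p63 list belonged to the 10 genes. Peaks that reached 10 on the -log10 q scale, the level at which the study counted a locus as open, are called open regions here, and 84 of 56680 in the control list and 84 of 62343 in the p63 list lay near an AP-1 factor gene. The q is the false discovery rate that the peak caller gave to a peak.

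Accessibility was measured by ATAC-seq, in which a transposase inserts sequencing adapters into open DNA, in the established human dermal fibroblast (HDF) line BJ. All 4 samples expressed KLF4, a zinc finger factor of the epidermis, from a doxycycline-inducible retrovirus; the 2 CTR samples expressed KLF4 alone and the 2 p63 samples expressed ΔNp63α, the p63 isoform of basal keratinocytes, as well. According to the methods of the study, doxycycline was given for 72 h, the lines were polyclonal rtTA lines, and a replicate was a further induction of those lines, so the replicates share their cells of origin. The authors deposited 1 peak list per group. That it was made from both samples is stated in the study's methods and could not be checked in the lists, so each value below is taken as one for both samples. The values have no error between replicates, and no test was possible.

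AP-1 is a dimer of basic leucine zipper proteins that binds TGACTCA or TGAGTCA. JUN proteins form homodimers or pair with FOS, ATF and BATF proteins, whereas FOS proteins need a JUN partner. Several of the genes are immediate early genes that are switched on within minutes by serum, growth factors or stress, and AP-1 occupies enhancers in fibroblasts as well as in keratinocytes.

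The lists were checked first. Peaks over exons of TP63, which the viral cDNA would give, were found in the p63 list alone, over exon 4 with a fold enrichment of 14.6 and over exon 14 with 7.99. A region within 1 kb of a TSS was present in both lists for 11 of 13 fibroblast markers and 2 of 9 keratinocyte markers, for 3 of 5 leukocyte markers in CTR and 1 of 5 in p63, and for 1 of 5 endothelial markers in both; KRT5, KRT14, KRT1, KRT10, GRHL2, SFN and DSG3 had none in either list. The background coverage recovered from the caller's values was 1.18 reads in CTR and 1.13 in p63. Fold enrichment compares the number of reads stacked at the summit with the number expected there from the surroundings, after 1 read is added to each. Bulk chromatin does not tell apart fewer cells with an open site from a less open site in each cell.

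Most open regions near the AP-1 factor genes were found in both groups. Peaks of both lists that overlapped by at least 1 bp were joined into 146 sites, of which 93 reached a -log10 q of 10 in at least 1 list and 75 reached it in both. Another 9 sites reached it in p63 but not in CTR, and 9 in CTR but not in p63. In CTR, 9 of 84 regions (10.7%, 95% Wilson interval 5.74 to 19.1) had no region at the same place in p63, whereas this held for 16.5% of the whole CTR list. In p63, 9 of 84 (10.7%, 5.74 to 19.1) had no region in CTR, against 23.9% of the whole p63 list. The intervals cover counting error only. Thus the regions near AP-1 factor genes were list-only in a share below that of the whole list in p63, outside the interval, and in CTR the share of the whole list lay within the interval. This was not particular to them. In the same windows, the p63-only share was 9.88% for fibroblast, 17.4% for leukocyte, 36.4% for endothelial and 40.7% for keratinocyte markers. The median -log10 q was 29.6 in CTR and 32.8 in p63 near the AP-1 factor genes, against 22.6 and 23 in the whole lists. The shares were not matched for this strength.

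Most of these 18 sites still carried a peak below the threshold in the other list. The list-only classes are set by the threshold, so the read ratios given below for these sites are not separate evidence of a difference. No CTR region near an AP-1 factor gene lacked any overlapping p63 peak (0 of 84, which allows a share of up to 4.37% by the Wilson interval; whole list 3.29%). In p63, 2 of 84 lacked any CTR peak (2.38%, 0.655 to 8.27), against 12% of the whole list; these were upstream of FOSB and FOSL2. Below the threshold, 15 sites had a weak peak in both lists, 16 in CTR alone and 22 in p63 alone. The plot of sites by gene shows how these classes were spread over the loci.

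**Figure D1:**
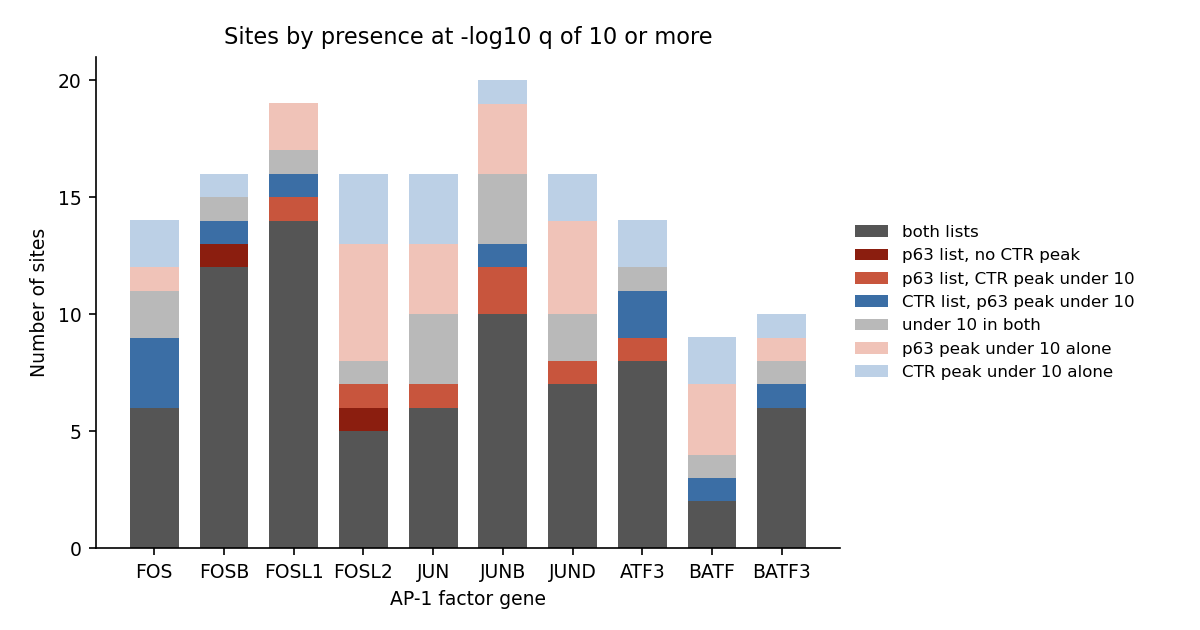
Number of sites in the window of each AP-1 factor gene (bars, y axis), coloured by the list or lists in which the site reached a -log10 q of 10; pale colours are peaks under 10. Sites in the windows of both ATF3 and BATF3, 4 in all, are counted for both genes. Dark grey, open in both lists, is the largest class above the threshold for all 10 genes, and the darkest red, regions of the p63 list without any CTR peak, is 1 site at FOSB and 1 at FOSL2.

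The regions open in both lists differed little in strength. For the 75 of them, the log2 p63/CTR ratio of fold enrichment was centred on the median of all 47412 paired regions (an uncentred ratio of 1.03). The centred ratio had a median of 0.05 near the AP-1 factor genes (SD 0.249, range -0.58 to 0.61), and was above 0 in 46 and below 0 in 29. A change past 1.5-fold was reached by 1 region, upstream of FOSL2, in the direction of higher in p63, and by 0 in the direction of lower; over all pairs, 2.24% were higher and 2.17% were lower by as much. By family, the median was 0.07 for 37 regions of the FOS genes, 0.06 for 23 of the JUN genes and 0.04 for 15 of ATF3, BATF and BATF3. The histogram places the 75 regions inside the distribution of all pairs.

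**Figure D2:**
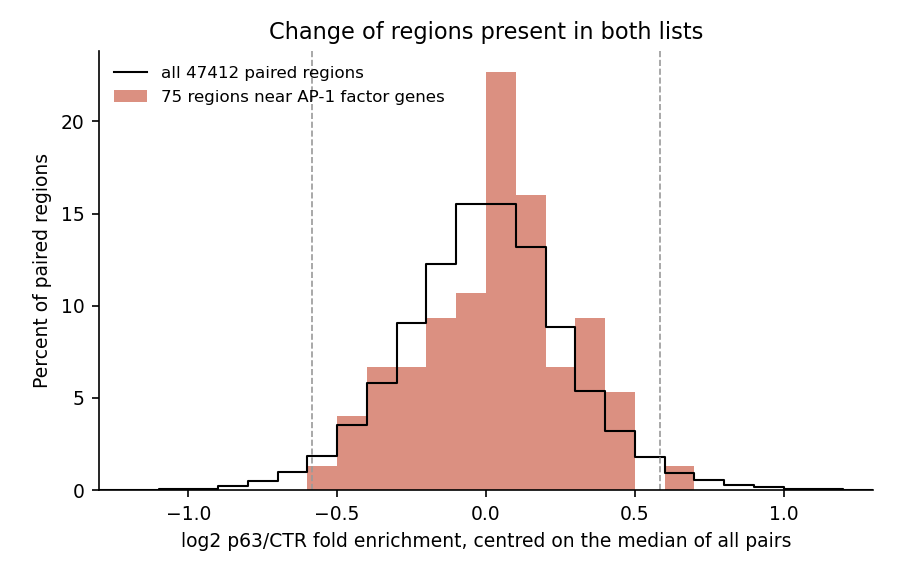
Percent of paired regions (y axis) by the centred log2 p63/CTR ratio of fold enrichment (x axis, bins of 0.1). The black line is all 47412 pairs and the bars are the 75 near AP-1 factor genes; dashed lines mark 1.5-fold, and 1 of the 75 lies beyond them.

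**Figure D3:**
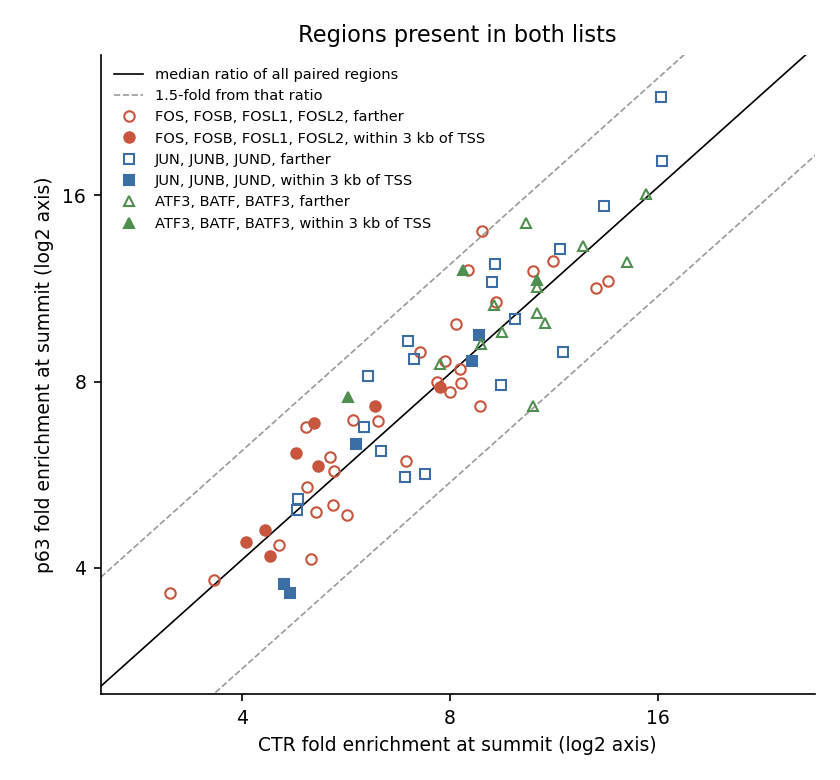
Fold enrichment at the summit in CTR (x axis, log2 scale) and in p63 (y axis, log2 scale) of the 75 regions open in both lists; filled symbols lie within 3 kb of a TSS of an AP-1 factor gene. The solid line is the median ratio of all paired regions, the dashed lines are 1.5-fold from it, and the open circle above the upper dashed line is the region 36.2 kb upstream of FOSL2.

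The regions stood out from the whole list in their surroundings rather than in their enrichment. Their median fold enrichment was 7.7 in CTR and 7.87 in p63, against 9.37 and 9.59 for all regions. At the same time, the median number of reads at the summit was 56.5 in CTR and 66 in p63, against 33 for all regions of either list, and the expected background was 7.15 and 7.73 reads, against 2.56 and 2.48. They were also wider, with a median of 648.5 bp in CTR and 677 bp in p63 against 575 and 542 bp. The background is the denominator of the fold enrichment, so a summit with more reads can have the lower fold enrichment. Some of the windows held many other genes: the TSS of a further 9 coding genes lay in the window of FOSL1, 7 in that of JUNB, 4 each in those of FOSB and JUND, 1 in that of ATF3, and none in those of FOS, FOSL2, JUN, BATF and BATF3. For 48 of the 93 open sites the nearest coding TSS, of any annotated transcript, was that of an AP-1 factor gene.

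The promoters were open for 9 of the 10 genes in both groups, BATF being the exception. Of 18 open sites within 3 kb of a TSS, 16 were open in both lists. By the reads at the summit of the strongest such site, JUN came first with 155 reads in CTR (95% exact Poisson interval 132 to 181) and 164 in p63 (140 to 191). ATF3 followed with 122 and 145 reads, JUND with 120 and 128, and JUNB with 112 and 124. FOSL2 had 101 and 129, and FOSL1 99 and 115. FOS had 69 and 93 reads and FOSB 67 and 87, and BATF3 came last with 29 (19.4 to 41.6) and 28 (18.6 to 40.5). Neighbours in this order had overlapping counting intervals, apart from FOSB and BATF3 in both lists. These are stacked reads at 1 base and not levels of RNA. After division by the background of each list, the p63/CTR ratio of summit reads at these strongest sites had a counting interval that included 1 for 7 of the 9 genes. The 2 others were FOSL2 and FOS. The share of all paired regions with an interval that leaves out 1 was not computed. The strongest site was chosen by the higher -log10 q of either list, which can favour the list with the higher value. For FOS the strongest site lay 1.57 kb upstream, and the region 112 bp upstream had a ratio of 0.997 (0.695 to 1.43). For JUNB it lay 1.33 kb upstream (1.16, 0.889 to 1.51), and the region 51 bp upstream had 0.878 (0.636 to 1.21).

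**Figure D4:**
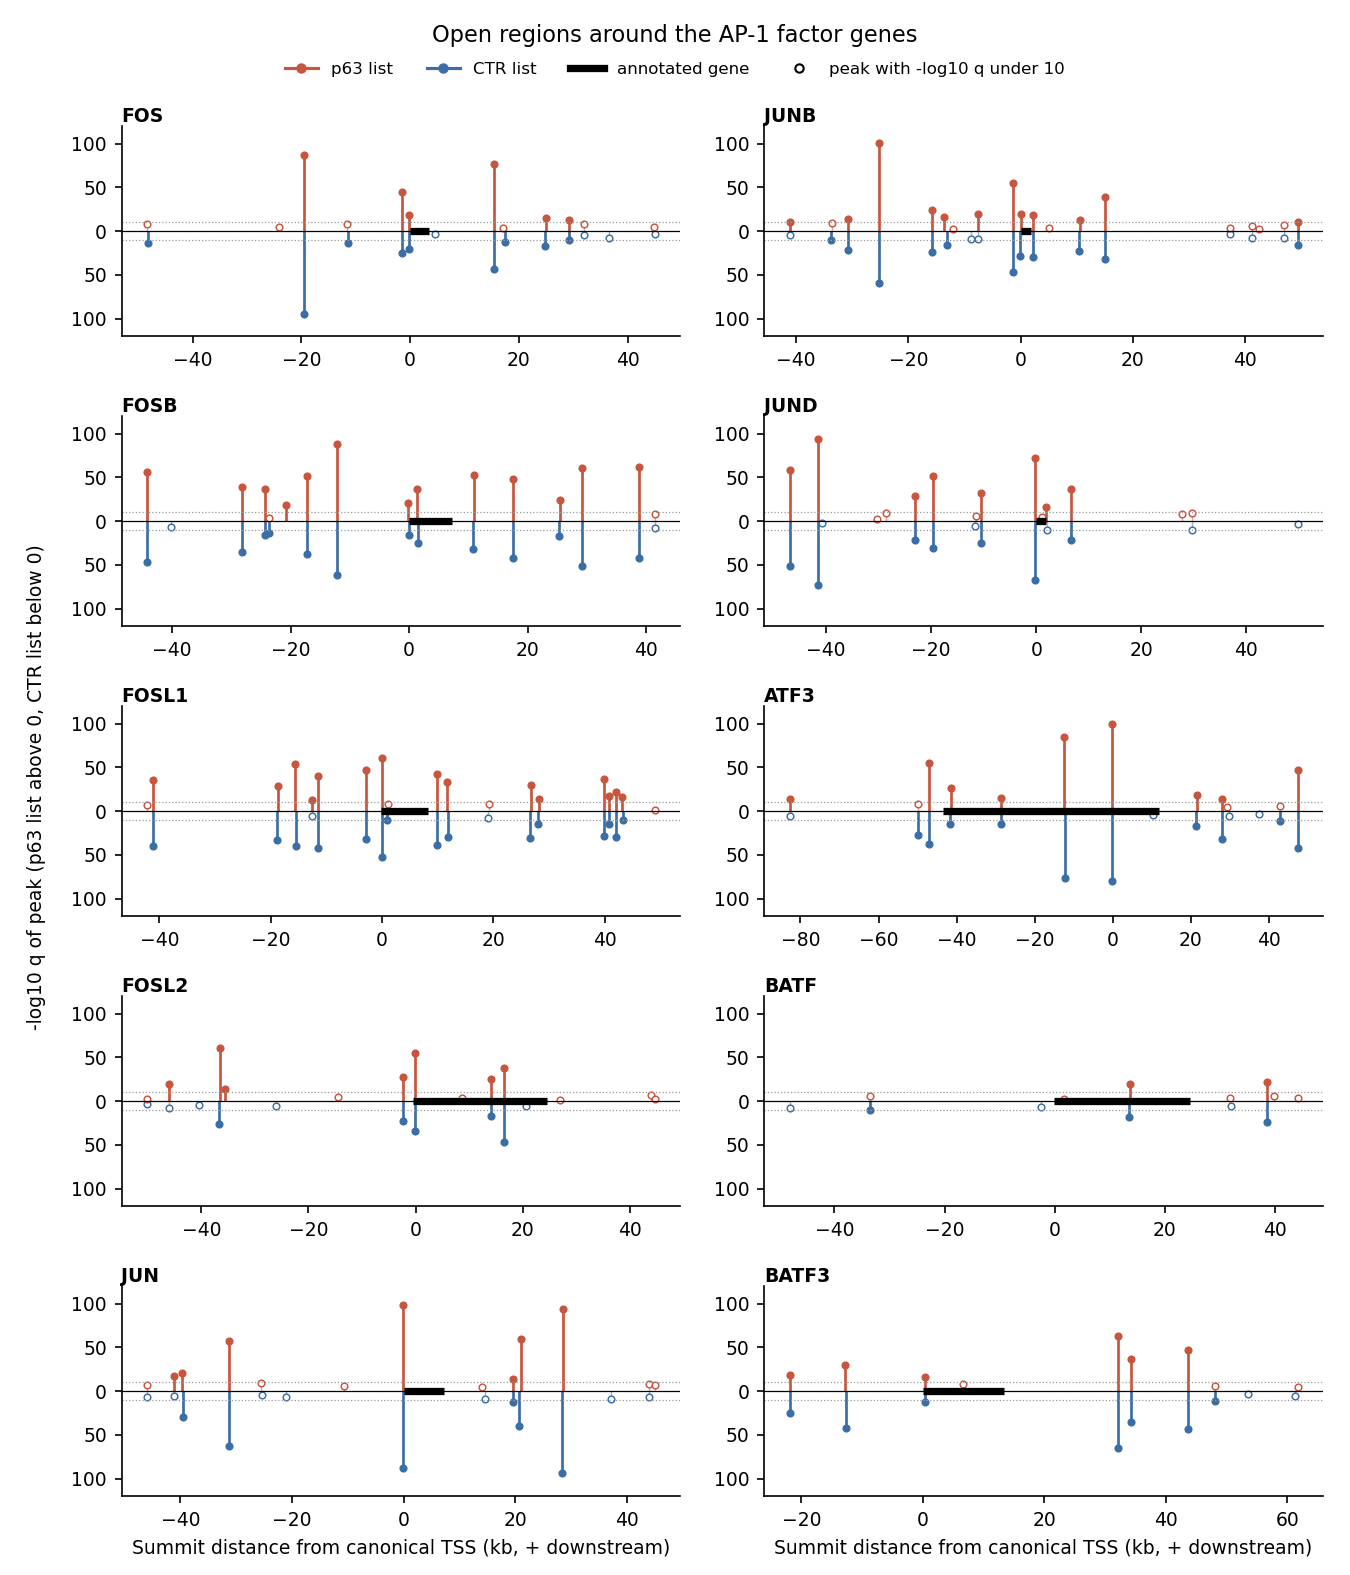
All peaks around each AP-1 factor gene, at the distance of their summit from the canonical TSS (x axis, kb, positive downstream), with the -log10 q in the p63 list above 0 and in the CTR list below 0 (y axis). The black bar is the annotated gene, dotted lines mark 10, and open circles are peaks under 10; most stems have a partner on the other side, and the panel of BATF has no stem past 10 at its TSS.

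FOS (ENSG00000170345.10, chromosome 14, 75278826 to 75282230, plus strand), the classic immediate early partner of JUN, had 9 regions in CTR and 6 in p63. All 14 of its sites had FOS as the nearest coding gene, and this window holds no TSS of another coding gene. Some sites lay in long noncoding RNA genes, whose promoters were not examined. At the promoter, the region nearest to the TSS, 112 bp upstream, had a fold enrichment of 4.40 in CTR (-log10 q 20.7, 66 reads) and 4.19 in p63 (18.8, 63 reads). The region 1.57 kb upstream had 5.09 in CTR (25.3, 69 reads) and 6.86 in p63 (44.5, 93 reads), a p63/CTR ratio of scaled reads of 1.41 with a counting interval of 1.02 to 1.95. The strongest of all was 19.5 kb upstream, among the top 1.17% of the CTR list with a fold enrichment of 13 and the top 2.91% of the p63 list with 11.3, and 129 reads at the summit in both.

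All 3 list-only regions of FOS were CTR-only, and each kept a p63 peak under the threshold. They lay 48.1 kb upstream (-log10 q 14 in CTR and 7.99 in p63), 11.4 kb upstream (14.1 and 8.46) and 16 kb downstream (12.5 and 4.08). Their summit reads were 22 and 13, 19 and 13, and 39 and 24 in CTR and p63, and the counting interval of each ratio included 1. The neighbour of the last, 14 kb downstream of the TSS, went the other way, with a fold enrichment of 8.50 in CTR and 12.1 in p63 (ratio of scaled reads 1.47, 1.09 to 2).

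FOSB (ENSG00000125740.15, chromosome 19, 45467995 to 45475179, plus strand), another immediate early FOS protein, had 13 regions in each list, 12 of them shared. The window is dense, and 2 of its 16 sites had the TSS of FOSB as the nearest coding one when all annotated transcripts were used, with ERCC1, RTN2, PPM1N and VASP close by. Within 3 kb, the regions 217 bp and 509 bp upstream of an annotated TSS had fold enrichments of 4.32 and 5.15 in CTR and 4.60 and 5.84 in p63. The strongest region, 12.1 kb upstream, contained an AP-1 match and had 9.33 in CTR (102 reads) and 10.8 in p63 (134 reads; ratio 1.37, 1.05 to 1.79).

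Since FOS and FOSB respond to serum through CArG boxes, the site of serum response factor (CC, 6 A or T, GG), the reference sequence of both promoters is shown, on the plus strand of hg38 with exact matches in capitals. The FOS sequence ends at the CTR summit and its capitals are a CArG box; the p63 summit lies within it. In the FOSB sequence, the first run of capitals is the cAMP response element (CRE) TGACGTCA and the second a CArG box.
FOS promoter (chr14:75278464-75278714): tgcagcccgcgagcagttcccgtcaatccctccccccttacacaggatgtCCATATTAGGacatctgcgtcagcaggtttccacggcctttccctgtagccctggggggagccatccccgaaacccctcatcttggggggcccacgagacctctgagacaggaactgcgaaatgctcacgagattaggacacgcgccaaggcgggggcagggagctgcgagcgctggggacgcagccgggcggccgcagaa
FOSB promoter (chr19:45467648-45467848): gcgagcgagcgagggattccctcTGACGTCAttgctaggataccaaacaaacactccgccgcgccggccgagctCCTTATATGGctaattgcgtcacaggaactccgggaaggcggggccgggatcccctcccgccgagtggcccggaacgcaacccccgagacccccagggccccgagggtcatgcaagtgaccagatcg
The summits of both regions differed between the lists. The CArG box of FOS lay 195 bp from the CTR summit and 43 bp from the p63 summit, and that of FOSB 218 bp and 51 bp, so that both were within the 100 bp on either side in which motifs were counted in p63 and outside it in CTR. The CRE of FOSB lay 270 bp from the CTR summit and 103 bp from the p63 summit, outside it in both.

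FOSB also had 1 of the 2 regions with no CTR peak. It lay 20.8 kb upstream, in a long transcript of ERCC1 outside its canonical one (chr19:45447030-45447255), with a fold enrichment of 4.29, a -log10 q of 18.1 and 59 reads at the summit over an expected 13. No match to the AP-1, CRE, KLF, TEAD, CArG, CTCF or p63 motifs was found within 100 bp of its summit. Its sequence, in lower case throughout for that reason, was as follows.
FOSB upstream, p63 list alone (chr19:45447121-45447251): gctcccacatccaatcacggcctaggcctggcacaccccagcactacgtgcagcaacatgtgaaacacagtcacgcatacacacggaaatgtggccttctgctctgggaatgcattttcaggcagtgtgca
At 23.6 kb upstream, the CTR-only region of FOSB had 4.49 in CTR (-log10 q 13.2) and 2.47 in p63 (3.57). Beside it, the region 24.4 kb upstream had 4.96 in CTR (44 reads) and 6.74 in p63 (78 reads; ratio 1.85, 1.26 to 2.74).

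FOSL1 (ENSG00000175592.9, chromosome 11, 65892049 to 65900573, minus strand) encodes FRA-1, a FOS protein without a strong activation domain that is abundant in mesenchymal and migrating cells. It had 15 regions in each list, 14 shared, the most of the 10 genes, but 3 of its 19 sites had FOSL1 as the nearest coding gene. The promoter region, 21 bp upstream of a TSS, had a fold enrichment of 7.74 in CTR (99 reads) and 7.84 in p63 (115 reads), and held TGACTCA. Of the other sites in the window, 4 open ones also held an AP-1 match, so that FOSL1 and ATF3, with 5 each, had the most among the genes. The strongest distal region, 15.4 kb upstream, had a fold enrichment of 5.44 in CTR (104 reads) and 5.74 in p63 (132 reads; ratio of scaled reads 1.33, 1.02 to 1.73). The background expected there was also higher in p63, with 18.3 reads in CTR and 22.2 in p63. The centred log2 ratio of fold enrichment was 0.03. The p63-only region 12.5 kb upstream (-log10 q 5.74 in CTR and 12.4 in p63; 35 and 54 reads, ratio 1.61, 1.03 to 2.54) and the CTR-only region 0.93 kb into the gene (10.4 and 8.06; 45 and 44 reads, ratio 1.02, 0.659 to 1.58) were the list-only sites.

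FOSL2 (ENSG00000075426.12, chromosome 2, 28392448 to 28417317, plus strand), which encodes FRA-2, had 5 regions in CTR and 7 in p63, all 5 of the former shared. At its promoter, the region 17 bp past a TSS had a fold enrichment of 4.79 in CTR (-log10 q 34.3, 101 reads) and 6.14 in p63 (55.4, 129 reads), with a ratio of scaled reads of 1.33 (1.02 to 1.75), and held TGACTCA. In an intron of the gene the order was reversed at 13.9 kb, with 8.86 in CTR and 7.30 in p63, at nearly the same reads (79 and 75; ratio 0.992, 0.713 to 1.38).

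Between 35.2 and 45.6 kb upstream of FOSL2, 3 open regions had higher values in p63. A weak peak among them, 40.1 kb upstream, went the other way and was found in CTR alone (-log10 q 3.91, 15 reads). The region 36.2 kb upstream (chr2:28356038-28356560) was the 1 shared region past 1.5-fold: its fold enrichment was 8.89 in CTR (-log10 q 26.5, 42 reads) and 14 in p63 (61.2, 76 reads), a centred log2 ratio of 0.61 against a limit of 0.585 and a ratio of scaled reads of 1.89 (1.28 to 2.83). The next largest centred log2 ratio among the 75 was 0.49, at ATF3. Nearby, 35.2 kb upstream, a region was found in p63 alone with no CTR peak (chr2:28357103-28357305; fold enrichment 5.62, -log10 q 13.5, 31 reads). A further region, 45.6 kb upstream, passed the threshold in p63 but not in CTR (5.43 and 8.05; -log10 q 7.98 and 19.5; 17 and 32 reads, ratio 1.97, 1.06 to 3.78). All 3 open regions were intergenic, with FOSL2 as the nearest coding gene.

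The regions 36.2 kb and 35.2 kb upstream are shown as the largest change of a shared region and as 1 of the 2 regions without a CTR peak. Capitals mark decamers of the p53 and p63 family (3 purines, C, 2 letters that are A or T, G, 3 pyrimidines) with 1 mismatch, 2 in each sequence and none adjacent to another, so that neither held the full site, a pair of such decamers in a row, with at most 3 mismatches.
FOSL2 upstream 36.2 kb (chr2:28356151-28356311): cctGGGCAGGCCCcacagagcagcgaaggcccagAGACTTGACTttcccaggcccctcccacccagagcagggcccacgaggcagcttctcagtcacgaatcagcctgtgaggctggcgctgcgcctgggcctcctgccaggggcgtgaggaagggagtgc
FOSL2 upstream 35.2 kb (chr2:28357134-28357294): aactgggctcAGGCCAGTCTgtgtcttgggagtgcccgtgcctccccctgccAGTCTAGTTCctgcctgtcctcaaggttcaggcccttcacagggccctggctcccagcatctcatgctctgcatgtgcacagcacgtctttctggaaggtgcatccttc
A decamer within 100 bp of the summit with at most 1 mismatch was found in 33.3% of the p63 regions near AP-1 factor genes and 43.8% of all p63 regions.

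JUN (ENSG00000177606.9, chromosome 1, 58776845 to 58784048, minus strand), the central partner of the AP-1 dimer, had 6 regions in CTR, all shared, and 7 in p63. Its promoter region, 81 bp upstream of a TSS, had a fold enrichment of 8.81 in CTR (-log10 q 87.8) and 9.52 in p63 (98.1), in the top 1.83% and 1.64% of the lists, and was 1857 bp wide in CTR and 1987 bp in p63. A distal region 28.5 kb downstream of the TSS was as strong, with 16.2 in CTR (93, 110 reads) and 18.2 in p63 (94.4, 104 reads; ratio 0.988, 0.748 to 1.3), and 39.6 kb upstream a region had 11.7 in CTR (38 reads) and 8.94 in p63 (32 reads; ratio 0.88, 0.532 to 1.45). Both held AP-1 matches, in capitals below, 1 in the former and 2 in the latter. The match of the former lay 58 bp from the p63 summit and 147 bp from the CTR summit, and those of the latter 21 and 86 bp from the CTR summit and 192 and 257 bp from the p63 summit.
JUN downstream 28.5 kb (chr1:58755499-58755649): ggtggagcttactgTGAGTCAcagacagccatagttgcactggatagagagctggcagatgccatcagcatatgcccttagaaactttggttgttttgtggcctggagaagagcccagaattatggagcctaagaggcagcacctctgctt
JUN upstream 39.6 kb (chr1:58823547-58823722): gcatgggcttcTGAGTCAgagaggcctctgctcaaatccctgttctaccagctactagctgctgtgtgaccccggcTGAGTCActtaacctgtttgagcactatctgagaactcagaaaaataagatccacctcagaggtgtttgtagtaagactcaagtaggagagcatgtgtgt

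The list-only region of JUN was p63-only, 41.2 kb upstream of the TSS and next to the one just shown, in the long noncoding RNA LINC01135. Its fold enrichment was 4.54 in CTR (-log10 q 5.80, 15 reads) and 7.69 in p63 (17.8, 30 reads), a ratio of 2.09 (1.09 to 4.18). The site was sorted by these values, so the interval is no separate support for a difference. Of the other sites in the window, 45 kb downstream, a p63 peak under the threshold (-log10 q 7.53, 13 reads) without a CTR peak held a full p63 site with 3 mismatches.

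JUNB (ENSG00000171223.6, chromosome 19, 12791486 to 12793315, plus strand), an immediate early gene whose product is a weaker activator than JUN, had 11 regions in CTR and 12 in p63, 10 of them shared. Its window also holds HOOK2, BEST2, PRDX2, RNASEH2A and other genes, and 2 of its 20 sites had JUNB as the nearest coding TSS. Around the gene, 3 regions were open in both lists: 1.33 kb upstream with 5.85 in CTR (112 reads) and 6.33 in p63 (124 reads), 51 bp upstream with 4.60 (88 reads) and 3.77 (74 reads), and 2.25 kb downstream with 4.69 (90 reads) and 3.64 (72 reads). Those at the TSS and past the gene were lower in p63 and the upstream one higher, but the counting interval of each ratio included 1. JUNB had the lowest median centred log2 ratio of the genes, -0.20 over 10 regions, 3 of them above 0.

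The strongest region of JUNB was in an intron of HOOK2, 25.2 kb upstream. Its fold enrichment of 16.2 in CTR (-log10 q 58.9, 66 reads) and 23.1 in p63 (101, 97 reads) gave a ratio of 1.54 (1.11 to 2.13). The p63-only regions lay 41.2 kb upstream (-log10 q 4.27 in CTR and 10.3 in p63; 12 and 22 reads, ratio 1.92, 0.908 to 4.25) and 7.61 kb upstream (8.93 and 19.2; 27 and 49 reads, ratio 1.90, 1.16 to 3.15). The CTR-only region, 33.8 kb upstream in a coding exon of BEST2, was at the threshold in both (10.4 and 9.69; 20 and 18 reads).

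JUND (ENSG00000130522.6, chromosome 19, 18279694 to 18281622, minus strand), the JUN gene that is expressed in most resting cells, had 7 regions in CTR, all shared, and 8 in p63. Of the 7 shared regions, 6 had a centred log2 ratio above 0, with a median of 0.16 and a range from -0.05 to 0.38. The promoter region, 165 bp upstream, did not follow, with 8.63 in CTR (120 reads) and 8.64 in p63 (128 reads). It held a CRE and a KLF match, GGGCGGGGC, shown in capitals, 32 bp and 56 bp from the p63 summit.
JUND promoter (chr19:18281707-18281847): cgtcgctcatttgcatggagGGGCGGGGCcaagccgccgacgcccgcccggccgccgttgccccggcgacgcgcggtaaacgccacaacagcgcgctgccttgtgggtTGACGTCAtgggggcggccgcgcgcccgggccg
The largest ratios were 19.6 kb upstream, where the fold enrichment was 6.97 in CTR (61 reads) and 9.30 in p63 (84 reads; ratio 1.44, 1.02 to 2.03), and 5.88 kb downstream, with 6.09 and 8.18 (48 and 66 reads; ratio 1.44, 0.975 to 2.13). Both held an AP-1 match. The p63-only region, in exon 1 of JUND itself, had a CTR peak just under the threshold (-log10 q 9.95 in CTR and 16 in p63; 50 and 64 reads, ratio 1.34, 0.909 to 1.98). The strongest region of the window, 41.6 kb upstream, lay at the TSS of LSM4.

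ATF3 (ENSG00000162772.18, chromosome 1, 212565334 to 212620777, plus strand), a stress-induced factor that pairs with JUN proteins, had 10 regions in CTR and 9 in p63, 8 of them shared. It has 7 annotated start sites, and the distances given are from the nearest one. Its main promoter region, 92 bp upstream of a TSS, had a fold enrichment of 10.7 in CTR (-log10 q 79.7, 122 reads) and 11.7 in p63 (99.6, 145 reads; ratio 1.24, 0.969 to 1.59). Of the 93 open sites, this was the 1 with a full p63 site of at most 3 mismatches within 100 bp of the summit, 40 bp from that of p63, in capitals.
ATF3 promoter (chr1:212608498-212608658): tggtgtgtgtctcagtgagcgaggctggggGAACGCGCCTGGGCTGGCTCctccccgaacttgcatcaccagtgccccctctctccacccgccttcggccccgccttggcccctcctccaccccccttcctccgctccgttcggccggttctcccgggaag

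The share of regions with such a site was 1 of 84 in both lists (1.19%, 0.21 to 6.44), against 0.932% of all CTR regions and 3.78% of all p63 regions. The sequence above holds exactly 3 mismatches, the most that was allowed, and the region was open in both lists. Of the shared regions of ATF3, the one 12.3 kb upstream had 15.4 in CTR (92 reads) and 16.1 in p63 (100 reads). The one 21.7 kb past a start site had the lowest centred log2 ratio of all 75 regions, -0.58, with a fold enrichment of 10.6 in CTR (44 reads) and 7.30 in p63 (23 reads; ratio 0.546, 0.315 to 0.924). It was intergenic, and its nearest coding TSS was that of GARIN4, at 12407 bp.

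List-only regions of ATF3 went in both directions. The p63-only region 39.3 kb upstream had 5.05 in CTR (-log10 q 5.19, 10 reads) and 8.83 in p63 (14, 18 reads; ratio 1.88, 0.823 to 4.56). The CTR-only region 6.33 kb upstream had 8.59 in CTR (26.8, 44 reads) and 4.97 in p63 (8.49, 21 reads; ratio 0.499, 0.282 to 0.857), the lowest ratio among the 9 CTR-only sites. Both held an AP-1 match, and the latter a CRE and a KLF match too (GCCCCGCCC, read on the minus strand as GGGCGGGGC). They are shown as list-only regions of opposite classes with the same AP-1 letters, TGAGTCA. The opposite directions were set by that choice, so the contrast tells nothing about AP-1 sites. The counting interval of the ratio at 39.3 kb included 1. The match there lay 8 bp from the CTR summit and 25 bp from the p63 summit, and at 6.33 kb 22 bp and 99 bp.
ATF3 upstream 39.3 kb (chr1:212525925-212526075): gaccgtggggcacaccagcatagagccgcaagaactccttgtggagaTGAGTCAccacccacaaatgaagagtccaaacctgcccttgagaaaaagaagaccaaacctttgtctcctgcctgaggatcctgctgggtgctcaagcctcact
ATF3 upstream 6.33 kb (chr1:212558933-212559083): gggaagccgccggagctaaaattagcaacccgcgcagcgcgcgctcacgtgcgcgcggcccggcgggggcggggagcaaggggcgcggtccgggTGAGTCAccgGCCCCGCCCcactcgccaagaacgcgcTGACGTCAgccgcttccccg

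BATF (ENSG00000156127.8, chromosome 14, 75522455 to 75546993, plus strand), known from T and B lymphocytes, where it pairs with JUN proteins and interferon regulatory factors, was the 1 gene without a region at its promoter. The nearest peaks were 2.38 kb upstream in CTR (-log10 q 7.14, 13 reads) and 1.59 kb into the gene in p63 (2.71, 7 reads), both under the threshold and each without a partner in the other list. It also had the fewest regions, 3 in CTR and 2 in p63. The shared ones lay in an intron 13.6 kb past the TSS (9.28 in CTR and 10.6 in p63, 24 reads in both) and 38.6 kb past it (11 and 9.95, 30 reads in both). The CTR-only region, 33.5 kb upstream, was just past the threshold (-log10 q 10.3 in CTR and 6.39 in p63; 15 and 11 reads, ratio 0.766, 0.318 to 1.78).

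BATF3 (ENSG00000123685.9, chromosome 1, 212686417 to 212699840, minus strand), required for a class of dendritic cells, was open at its promoter but weakly. The region 267 bp past the TSS had a fold enrichment of 5.69 in CTR (-log10 q 12.9) and 7.55 in p63 (16.5), in the top 83.0% and 69.3% of the lists. Its other regions, of 7 in CTR and 6 in p63, were distal, and the strongest, 19.8 kb past a start site, had 10.7 in CTR (98 reads) and 11.4 in p63 (91 reads; ratio 0.97, 0.721 to 1.3). Upstream, 2 shared regions had lower fold enrichment in p63, at 12.7 kb (14.4 and 12.5; 48 and 35 reads) and 21.9 kb (10.7 and 10.3; 33 and 23 reads), and the counting interval of both ratios included 1. The CTR-only region of BATF3, also in the window of ATF3, was 35.8 kb past the nearest annotated start site of BATF3 (-log10 q 11.4 in CTR and 5.56 in p63; 24 and 17 reads, ratio 0.74, 0.373 to 1.44). The nearest coding TSS to this region was that of GARIN4, at 27242 bp.

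How often the open regions in the windows of the AP-1 factor genes carry the AP-1 motif was counted next. An exact TGACTCA or TGAGTCA, on either strand within 100 bp of the summit, was found in 18 of 84 regions in both lists (21.4%, 95% Wilson interval 14 to 31.3), compared with 26.9% of all CTR regions and 25.4% of all p63 regions. By sites, 21 of 93 held the motif. Among the open sites of each window, these were 5 of 16 at FOSL1, 5 of 11 at ATF3, 3 of 14 at FOSB and 3 of 8 at JUND. At FOSL2, JUN and BATF3 there were 2 of 7 each, and at FOS, JUNB and BATF none of 9, 13 and 3. All 3 sites at FOSB and all 3 at JUND had another coding gene as the nearest by any annotated TSS, and those at FOSL1 were mixed. Those at FOSL2, JUN, ATF3 and BATF3 had an AP-1 factor gene as the nearest. A site shared by ATF3 and BATF3 is counted for both, and a site was searched around the summit of the list with the higher -log10 q.

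The motif of KLF factors (GGGCGGGGC, GGGCGTGGC, GGGTGGGGC or GGGTGTGGC) was found in 14.3% of CTR regions near the genes (8.37 to 23.3) and 15.5% of p63 regions (9.27 to 24.7), against 7.4% and 7.14% of all regions. The intervals lay above the whole-list values, and so did those of the CArG box, with 4.76% (1.87 to 11.6) and 5.95% (2.57 to 13.2) against 1.25% and 1.09%. Within 3 kb of a TSS of the genes, a CArG match was found in 0 of 17 CTR regions and 2 of 17 p63 regions, and the others, 4 in CTR and 3 in p63, were farther away. By sites, 15 of 93 held a KLF match: 4 each at FOSB and FOSL1, 3 at JUND, 2 at JUNB and 1 each at FOSL2 and ATF3. A CArG match was held by 4 sites, 2 at JUNB and 1 each at FOSB and FOSL1. Several of these sites lay nearest to the TSS of another coding gene, such as PPM1N, CCDC85B, CFL1 or MAST1. The shares thus describe the windows and not the AP-1 factor genes alone. The share of G and C around the summit had a median of 67.0% for the open sites of FOSB, 67.2% for FOSL1, 66.7% for JUNB and 48.3% for BATF3, and the part of base composition in the KLF share was not tested. CRE matches (TGACGTCA) were found in 2.38% and 1.19% (whole lists 0.762% and 0.661%), TEAD matches (ACATTCCA, ACATTCCT, GCATTCCA or GCATTCCT) in 5.95% and 7.14% (8.9% and 8.24%), and CTCF matches with at most 1 mismatch in 10.7% and 5.95% (9.78% and 8.4%). A match is a run of letters in the reference and not evidence of a bound factor.

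**Figure D5:**
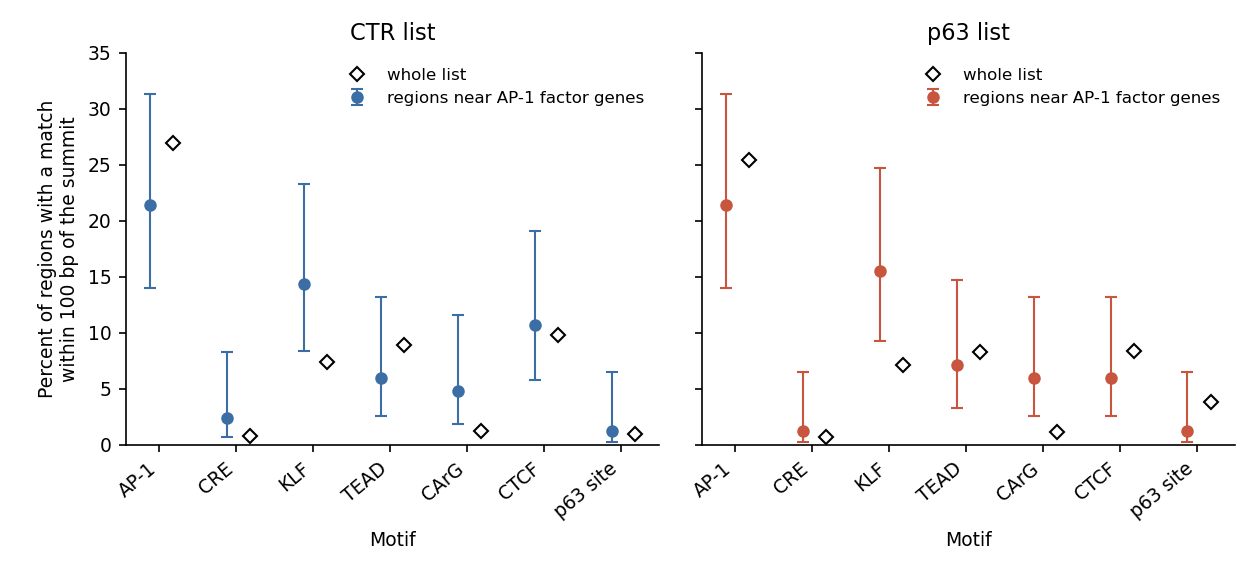
Percent of open regions with a motif match within 100 bp of the summit (y axis) for each motif (x axis), in the CTR list (left) and the p63 list (right). Filled circles are the 84 regions near AP-1 factor genes with 95% Wilson intervals for counting error and open diamonds the whole list; the diamonds lie below the intervals for the KLF and CArG motifs in both lists.

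Genes around the AP-1 factors were counted by the same windows. For 14 other basic leucine zipper partners, 93 CTR and 103 p63 regions were found, of which 10.8% were CTR-only and 19.4% p63-only. For 15 kinases and other upstream regulators, the numbers were 82 and 104 regions, with 12.2% CTR-only and 30.8% p63-only, and for 15 further early response genes 125 and 126 regions, with 10.4% and 12.7%. The members themselves had 10.7% in both, and the whole lists 16.5% CTR-only and 23.9% p63-only. Regions within 1 kb of a TSS were present for 13 of the 14 partners in both lists, MAF being the exception, for 14 of 15 upstream genes in CTR and 15 in p63, and for 14 of 15 early response genes in both, without EGR3. Differences between these lists of genes were not tested. By the median centred log2 ratio of shared regions, 0.05 for the partners, 0.03 for the upstream genes and 0.00 for the early response genes, all lay within 0.05 of the median of all pairs.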

How the data were processed

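ATAC-seq was performed by the authors on 4 samples of BJ fibroblasts, 2 per group by the labels. The reads were mapped to hg38 with Bowtie2 2.3.4.3 and peaks were called with MACS2, by the study's methods from both samples of a group; its version and options, duplicate removal and read shift are not given in the sources used here. The deposited lists, 1 per group, hold for each peak a fold enrichment (a ratio of summit to background reads, each plus 1), -log10 p and q values and the summit position. Peaks on chromosomes 1 to 22, X and Y were used here, without 2558 CTR and 2808 p63 peaks of unplaced and other sequences.

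The summit reads and the expected background were solved from the deposited fold enrichment and -log10 p (Python 3.11.15, numpy 2.4.6, scipy 1.17.1). The result was within 0.02 of a whole number for 210596 of 210597 peaks, and 31 peaks with a very high -log10 p were not solved. Ratios of summit reads were divided by the ratio of list backgrounds, 0.957, and have exact 95% intervals, which cover counting error only. They are not corrected for the background expected at each summit and not centred on all pairs. The recovery of reads, the overlap classes, the fold ratios and the motif searches were tested on simulated data. Genes came from GENCODE release 44, with coordinates 1-based, and sequences from GRCh38 (pysam 0.24.0). Motifs were searched on both strands within 100 bp of the summit of each region. The p63 site of 20 bp consists of 2 decamers whose C and G were fixed, with up to 3 mismatches among the remaining 16 bases, and no 2 printed matches overlap.

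The members, gene lists, motifs and alternatives were chosen with earlier results of these data known. Described singly are the nearest and the strongest region within 3 kb of each TSS, all list-only regions, pairs past 1.5-fold, regions with a p63 site and the strongest distal region of each gene. A few neighbours of these were added after their values were seen. A keratinocyte marker of the list is not reported here and was left out of the count.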

Additional observations from a re-analysis of the deposited data

How the results depend on the processing

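No paired analysis was possible because each group has 1 pooled list, and leaving out a replicate could not be run for the same reason. Of 79 alternatives, 43 stayed within 1.5 times the count given, or within 1 SD of the median ratio, and 36 did not. With 1 list per group, how far the lists differ between replicates is unknown. A region at a -log10 q of 10 had at least 15 reads at its summit, so sites with fewer were counted only as peaks below the threshold.

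The number of regions near AP-1 factor genes, 84 in each list, was 43 in CTR and 42 in p63 when a member had to be the nearest coding gene, 55 and 55 without regions within 3 kb of another coding TSS, 136 and 133 with 100 kb windows, and 133 in p63 with all deposited peaks. CTR-only regions, 9 above, numbered 5 with 25 kb windows, 18 with 100 kb windows and 16 with all peaks. p63-only regions, also 9, numbered 5 near members alone, 4 with 25 kb windows, 15 with 100 kb windows, 5 at a -log10 q of 20 and 24 with all peaks. CTR regions without a p63 peak, 0 above, numbered 2 with 100 kb windows, 16 with all peaks and 5 when an overlap of 50% of both peaks was asked. p63 regions without a CTR peak, 2 above, numbered 1 near members alone, 1 with 25 kb windows, 0 at a -log10 q of 20, 24 with all peaks and 8 at an overlap of 50%. As a share of the member regions, list-only regions ranged from 8.77% to 14.5% in CTR and from 7.14% to 18% in p63. The whole-list shares, 16.5% in CTR and 23.9% in p63, hold for the main setting and are not matched to the alternatives.

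Shared regions higher in p63 past 1.5-fold, 1 above, numbered 2 by summit reads over the list background and 0 past 2-fold, and those lower, 0 above, numbered 1 by summit reads. Over all pairs, 7.24% were higher and 5.03% lower by summit reads, and 0.146% were higher past 2-fold. AP-1 matches in p63 fell from 18 to 10 regions within 50 bp of the summit. Full p63 sites, 1 above in each list, numbered 0 in CTR within 50 bp, 3 and 3 in the whole peak, 0 and 0 with at most 2 mismatches, 3 and 5 with at most 4, and 27 and 28 when a decamer was enough. Wider or looser settings hold more sequence by construction. The cause of the other differences was not tested.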

Other observations

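Among other genes of the AP-1 pathway, list-only regions within 3 kb of a TSS followed the rule for named genes. BATF2, a basic leucine zipper partner, had a p63-only region at -59 bp from its TSS, where fold enrichment was 10.9 in p63 and 5.05 in CTR (-log10 q 23.2 and 5.19). NFE2L2, the regulator of antioxidant genes, had 3 p63-only regions near its start sites, with -log10 q of 12, 11 and 11.8 in p63 and of 6.55, 9.68 and 6.87 in CTR. MAP2K2, a kinase upstream of ERK, had the 1 such region without a CTR peak, at -282 bp from its TSS, where fold enrichment was 7.32 (-log10 q 12.4, 20 reads) and an AP-1 match lay within 100 bp of the summit. MAPK3 and ELK3 had 2 p63-only regions each, with -log10 q from 10.9 to 13.6 in p63 and from 7.54 to 9.34 in CTR, so these were close to the threshold.

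CTR-only regions of this kind were found at MAFG (-log10 q 25.3 in CTR and 7.66 in p63), MAPK9 (11 and 9.85), MRTFA (10.4 and 8.68) and DUSP5 (18.5 and 4.61). DUSP5, a phosphatase that restrains ERK, had a p63-only region as well, 1723 bp past its TSS, with 22.9 in p63 and 9.23 in CTR, and both of its regions held an AP-1 match. IER3 and SPRY2 each had 1 p63-only region at the threshold (10 and 10.1 in p63, 7.34 and 6.38 in CTR). These are single peaks without replicate values, and no test was possible.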
